A study of Mus musculus with 8 samples.

Results

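A group of 10 genes of the leukocyte surface and interior were followed across an injury of the mouse Achilles tendon. They are the integrin subunits Itgam, Itgax, Itgal, Itgb2, Itga4 and Itgb7, and 4 genes used as general markers of leukocytes or of myeloid cells, Ptprc, Laptm5, Coro1a and Csf1r. They were found by gene symbol, and all 10 of 10 were among the 15747 genes with values. The RNA of 8 libraries was taken from the Achilles tendon of C57BL/6J mice, wild type throughout, 4 after injury and 4 after a sham operation. For the injury, a 1.5 mm ear punch removed a 0.75 mm semicircle from the lateral side of the tendon, and the labels name no transgene or agent in either group. The labels used here give neither the age of the mice nor the time from operation to sampling, and do not state whether each library is a different animal. All p-values therefore refer to the spread among these libraries, part of which may be technical.

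Leukocyte integrins are pairs of an alpha and a beta chain that let blood cells grip vessel walls, matrix and other cells. The beta-2 chain Itgb2 (CD18) pairs with Itgal (CD11a), Itgam (CD11b) or Itgax (CD11c), and none of these reaches the surface in quantity without it. Itga4 pairs with Itgb1 or with Itgb7 and binds Vcam1, and with Itgb7 also the gut addressin Madcam1. Itgal is carried by most leukocytes, Itgam mainly by myeloid and NK cells, and Itgax by dendritic cells and by subsets of macrophages. A tendon is mostly matrix and fibroblast-like tenocytes, and leukocytes enter it in number after injury.

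Expression is given as normalised read counts, with library totals of 14568669 to 16263086 in injury libraries and 13596488 to 15545903 in sham libraries. Of all genes tested, 9402 (59.7%) passed an adjusted p of 0.05 in limma. Of all genes tested 28.5% (4481) were higher and 31.3% (4921) lower after injury, and the median log2 fold change over all genes was -0.02. The groups also differed in tissue other than tendon. Genes of skeletal muscle (25 of 25 measured, all 25 lower after injury) took 0.389, 0.697, 1.82 and 2.43% of the counts in injury replicates 1 to 4, against 8.06, 8.02, 6.86 and 11.9% in sham replicates 1 to 4. Tendon identity was present in both groups: Tnmd, a membrane protein of mature tenocytes, averaged 24299 ± 2103 normalised counts after injury and 5312 ± 871 after sham operation (SD, n = 4 each).

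Promoter windows from RefSeq are shown for 4 genes, since Itgax and Itgam are neighbours on chromosome 7 yet differed widely in their change, while Ptprc and Laptm5 changed by nearly the same amount. The sequences are the 250 bases upstream of a RefSeq start on GRCm38.p6, 5′ to 3′ on the gene's strand. RefSeq and GENCODE starts differ: the Ptprc window lies inside the GENCODE gene, as does most of the Laptm5 window with its match. Capitals mark letters of 3 motifs searched on both strands: GAGGAA (the core of PU.1 sites), TGTGGT (RUNX) and TGANTCA (AP-1).
Itgax, chr7:128129300-128129549, plus strand: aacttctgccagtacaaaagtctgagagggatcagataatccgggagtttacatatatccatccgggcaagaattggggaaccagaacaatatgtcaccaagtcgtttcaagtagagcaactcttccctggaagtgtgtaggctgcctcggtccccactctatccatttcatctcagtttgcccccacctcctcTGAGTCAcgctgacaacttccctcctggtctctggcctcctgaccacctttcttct
Itgam, chr7:128062390-128062639, plus strand: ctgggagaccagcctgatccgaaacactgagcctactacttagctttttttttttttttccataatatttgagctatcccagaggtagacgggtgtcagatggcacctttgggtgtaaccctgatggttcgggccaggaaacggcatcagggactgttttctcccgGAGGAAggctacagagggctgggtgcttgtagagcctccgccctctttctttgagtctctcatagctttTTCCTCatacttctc
Ptprc, chr1:138175306-138175555, minus strand: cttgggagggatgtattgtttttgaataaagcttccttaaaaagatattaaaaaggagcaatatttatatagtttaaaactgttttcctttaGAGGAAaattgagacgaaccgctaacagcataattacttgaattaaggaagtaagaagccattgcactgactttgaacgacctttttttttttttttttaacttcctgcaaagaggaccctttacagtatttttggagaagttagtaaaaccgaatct
Laptm5, chr4:130913066-130913315, plus strand: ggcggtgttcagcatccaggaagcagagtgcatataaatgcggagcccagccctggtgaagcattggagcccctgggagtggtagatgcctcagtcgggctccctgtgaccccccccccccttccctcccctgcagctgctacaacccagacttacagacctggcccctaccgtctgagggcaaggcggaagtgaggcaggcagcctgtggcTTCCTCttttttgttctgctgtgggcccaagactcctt
The Itgax window held 1 AP-1 match, at -56, and no PU.1 match. The Itgam window held PU.1 letters at -84 and -15, the Ptprc window shown at -158 and the Laptm5 window at -38. A further RefSeq window of Ptprc, chr1:138175127-138175376, held none of the 3 motifs. RefSeq windows were matched for 7 of the 10 genes. PU.1 letters were found in 3 of these 7 genes, all shown above, and in 3 of their 9 windows. The windows of Itga4, Coro1a and Itgb7 held no PU.1 letters. The only RUNX match among the 7 genes was in Itga4, at -60. Of 32851 promoter windows of this length, 23.3% held the PU.1 letters, 14% the RUNX letters and 6.75% the AP-1 letters. A match is a description of letters and not a measured site.

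Of the 10 genes, 8 were higher after injury, none was lower and 2 did not pass the test, beside 28.5% of all genes tested that were higher. In 7 of the 10 every injury library stood above every sham library, against 26.7% of all genes. The median log2 fold change of the 10 was 0.72. Of the 8, 3 (Itgax, Itgb2 and Itgal) changed by at least 2-fold, and the other 5 by less. In bulk tissue, a change in the number of cells of a type and a change in RNA per cell cannot be told apart.

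**Figure D1:**
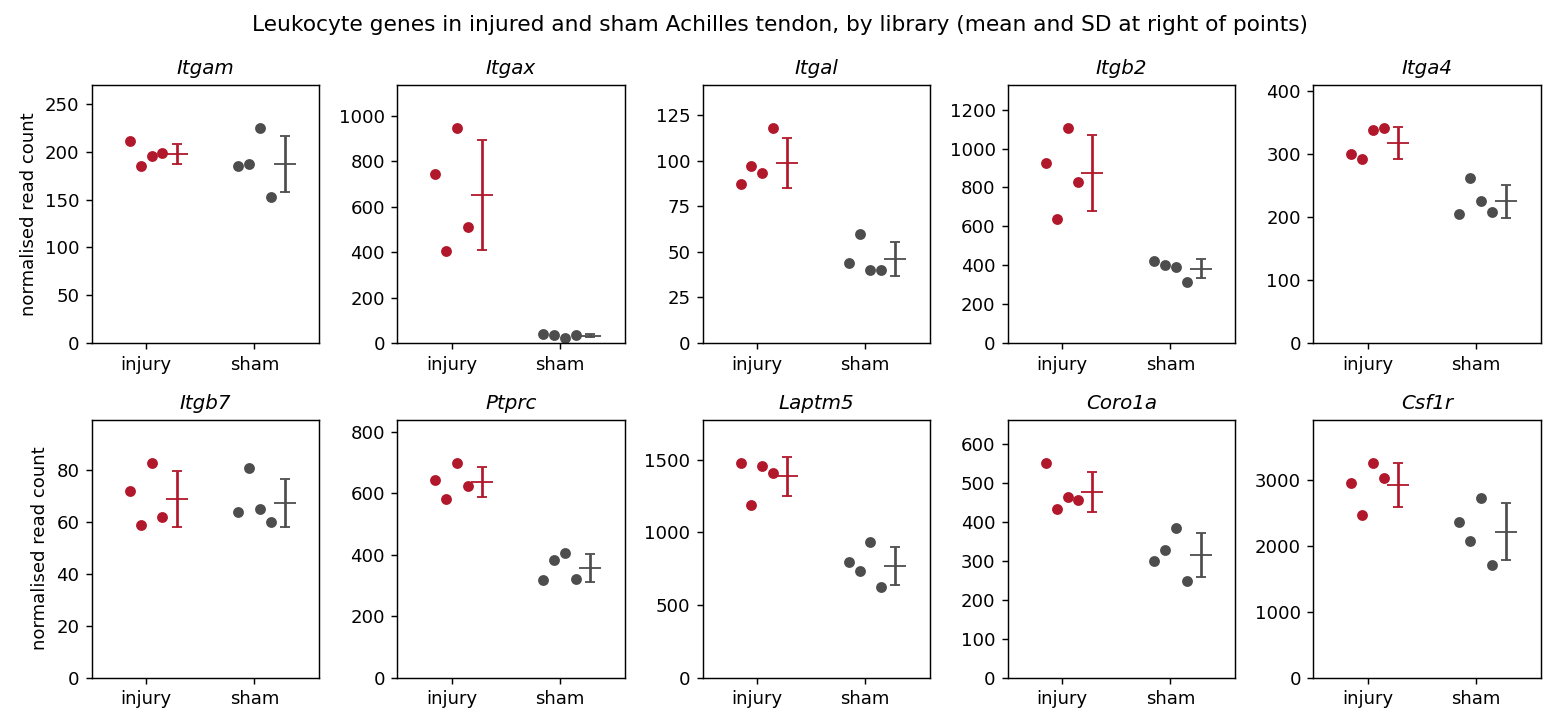
Normalised read counts of the 10 genes, 1 panel each with its own linear axis from 0, injury libraries to the left of sham libraries; points are libraries, and the dash and bar beside them are the mean and SD of 4. Itgax stands apart, at 406 to 947 in injury libraries and 22 to 38 in sham libraries, while the groups overlap for Itgam, Itgb7 and Csf1r.

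Among the beta-2 integrins, Itgax changed most. Itgax (ENSMUSG00000030789, chromosome 7, 128129547 to 128150657, plus strand, GRCm38) had 746, 406, 947 and 511 normalised counts in injury replicates 1 to 4, against 38, 33, 22 and 34 in sham replicates 1 to 4. The lowest injury library was above the highest sham library. This was a 19.3-fold difference (log2 fold change 4.27, SE 0.27; 95% interval of the fold 12.6 to 29.4; limma, Benjamini-Hochberg adjusted p = 4.5e-06), and ranked 30 by log2 fold change among all genes.

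Its neighbour Itgam (ENSMUSG00000030786, chromosome 7, 128062640 to 128118491, plus strand) ends 11055 bases before Itgax begins. Itgam had 211, 185, 196 and 199 normalised counts in injury libraries and 185, 187, 225 and 153 in sham libraries. The injury values lay inside the range of the sham values. The log2 fold change was 0.09 (SE 0.12, 95% interval -0.18 to 0.35; limma adjusted p = 0.543), and its sign turned with equal library totals, with the mean level of muscle genes as a covariate, and without sham replicate 4, by itself or with injury replicates 3 and 4. Of 5024 exon bases of Itgam, 3450 are shared with Gm49368 on the same strand, which has no value here, so the level of Itgam is uncertain.

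Itgal (CD11a, chromosome 7, 127296260 to 127335138, plus strand) had 87, 97, 93 and 118 normalised counts in injury libraries and 44, 60, 40 and 40 in sham libraries. The groups did not overlap, and the 2.14-fold difference passed the test (log2 fold change 1.10, SE 0.17; limma adjusted p = 0.000435). Itgb2, the shared beta chain (chromosome 10, 77530252 to 77565708, plus strand), had 927, 635, 1106 and 826 normalised counts in injury libraries and 423, 403, 388 and 313 in sham libraries. It was 2.25-fold higher after injury (log2 fold change 1.17, SE 0.17; limma adjusted p = 0.000294). Itgad and Itgb2l, the remaining genes of this kind on the lists, had no value.

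The other integrin pair moved less. Itga4 (chromosome 2, 79255426 to 79333123, plus strand) had 300, 291, 337 and 341 normalised counts in injury libraries and 205, 261, 225 and 207 in sham libraries, with no overlap. It was 1.41-fold higher (log2 fold change 0.50, SE 0.10; limma adjusted p = 0.00221). Of its exon bases 1124 overlap those of Cerkl. Itgb7 (chromosome 15, 102215995 to 102231944, minus strand) had 72, 59, 83 and 62 normalised counts in injury libraries and 64, 81, 65 and 60 in sham libraries. Its groups overlapped throughout, with a log2 fold change of 0.03 (SE 0.15; limma adjusted p = 0.888).

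The general leukocyte genes rose by less than 2-fold. Ptprc (chromosome 1, 138062861 to 138175708, minus strand) encodes CD45, the tyrosine phosphatase of all nucleated blood cells. It had 644, 581, 700 and 625 normalised counts in injury libraries and 318, 384, 406 and 321 in sham libraries, a 1.79-fold difference without overlap (log2 fold change 0.84, SE 0.10; limma adjusted p = 0.000124). Laptm5 (chromosome 4, 130913125 to 130936141, plus strand), a lysosomal membrane protein of blood cells, had 1480, 1191, 1459 and 1411 normalised counts in injury libraries and 797, 731, 931 and 621 in sham libraries. It was 1.81-fold higher (log2 fold change 0.86, SE 0.13; limma adjusted p = 0.000367). Every injury library was above every sham library for both genes.

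Coro1a (chromosome 7, 126699773 to 126707787, minus strand), a coronin that binds the actin of leukocytes, had 553, 434, 466 and 458 normalised counts in injury libraries and 301, 329, 385 and 248 in sham libraries. It was 1.52-fold higher, with no overlap (log2 fold change 0.61, SE 0.14; limma adjusted p = 0.00383). With the muscle covariate its log2 fold change was 0.25 and its adjusted p was 0.45.

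Csf1r (chromosome 18, 61100598 to 61132149, plus strand), the receptor of CSF1 and IL-34 on monocytes and macrophages, had 2954, 2469, 3261 and 3032 normalised counts in injury libraries and 2360, 2071, 2722 and 1715 in sham libraries. The groups overlapped, and it was 1.33-fold higher (log2 fold change 0.41, SE 0.14, limma adjusted p = 0.0327). Of the exon bases of Csf1r 873 overlap those of Hmgxb3 on the other strand. The call was lost with equal library totals (adjusted p = 0.138), with the muscle covariate (0.342), without the 3 libraries richest in muscle within each group, which are injury replicates 3 and 4 and sham replicate 4 (0.263), and without sham replicate 2 (0.0762), sham replicate 4 (0.065), injury replicate 1 (0.0624), injury replicate 3 (0.0861) or injury replicate 4 (0.0657).

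**Figure D2:**
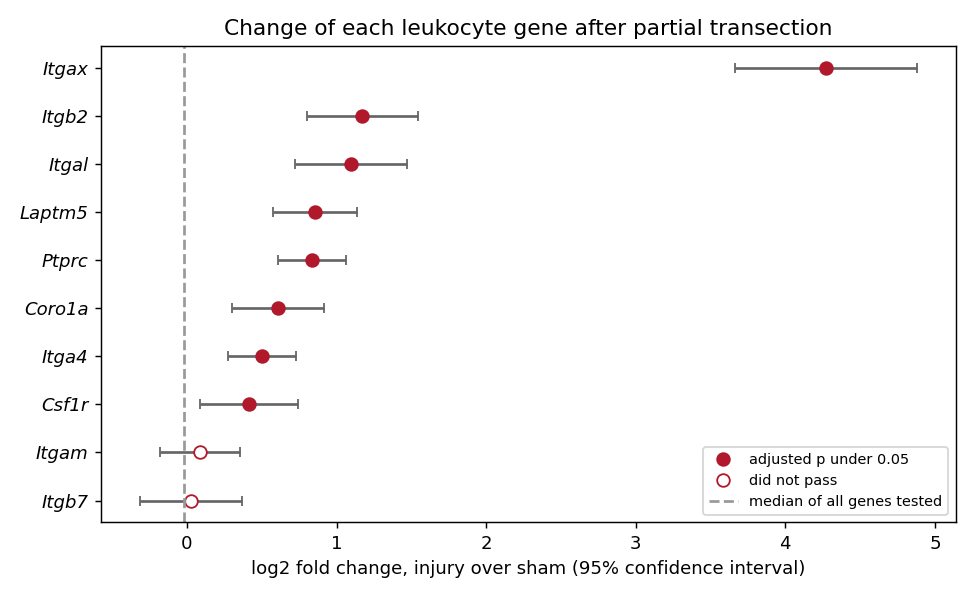
Log2 fold change of injury over sham for the 10 genes, with 95% intervals from limma, n = 4 libraries in each group; filled points passed the test, open points did not, and the dashed line is the median of all genes. Itgax lies at 4.27, while the other 7 called genes lie between 1.33-fold and 2.25-fold, and the intervals of Itgam and Itgb7 span 0.

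The calls were read against 18 alternatives, from other scalings to left-out libraries. Itgax kept a log2 fold change of 4.07 to 4.47, Itgb2 of 0.92 to 1.32, Itgal of 0.94 to 1.35, Ptprc of 0.73 to 0.90, Laptm5 of 0.70 to 0.95 and Itga4 of 0.37 to 0.66, and all of these stayed past the threshold. The highest limma adjusted p among them was 0.049, for Laptm5.

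Libraries differed in a shared way within the groups. Injury replicate 2 was the lowest injury library for 9 of the 10 genes, and injury replicate 3 the highest for 5. Sham replicate 4 was the lowest sham library for 6 genes, not counting a tie for Itgal, and sham replicate 3 the highest for 5. Injury replicate 2 was among the injury libraries with little muscle and sham replicate 4 had the most muscle of all. The part of muscle in these ranks was not tested.

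To ask whether the genes changed by unequal amounts, the log2 ratio of each to Ptprc was compared between the groups in 9 pairs, and partner chains were compared in 4 more. Of the 13 pairs 8 passed, 2 with the ratio higher after injury and 6 lower, each with p = 0.0286 in an exact two-sided permutation test, which is the smallest that 4 against 4 libraries allow, and an adjusted p of 0.0464. Relative to Ptprc, Itgax was 10.8-fold higher after injury, a difference in log2 ratio of 3.43. Itgb7 (-0.81), Itgam (-0.75), Csf1r (-0.42) and Itga4 (-0.34) were lower relative to Ptprc. Itgb2 (0.33, exact permutation adjusted p = 0.111), Itgal (0.26, 0.236), Coro1a (-0.23, 0.111) and Laptm5 (0.02, 0.943) did not pass, which does not show that they changed alike.

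Of the partner pairs, the ratio of Itgax to Itgb2 differed by 3.10 on the log2 scale, that of Itgam to Itgb2 by -1.08 and that of Itgb7 to Itga4 by -0.47. The ratio of Itgal to Itgb2 differed by -0.08, with an exact permutation adjusted p of 0.805. With 1 library left out the smallest p of the exact permutation test is 0.0571, so that this test cannot pass, and every difference moved by less than 1 SD.

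**Figure D3:**
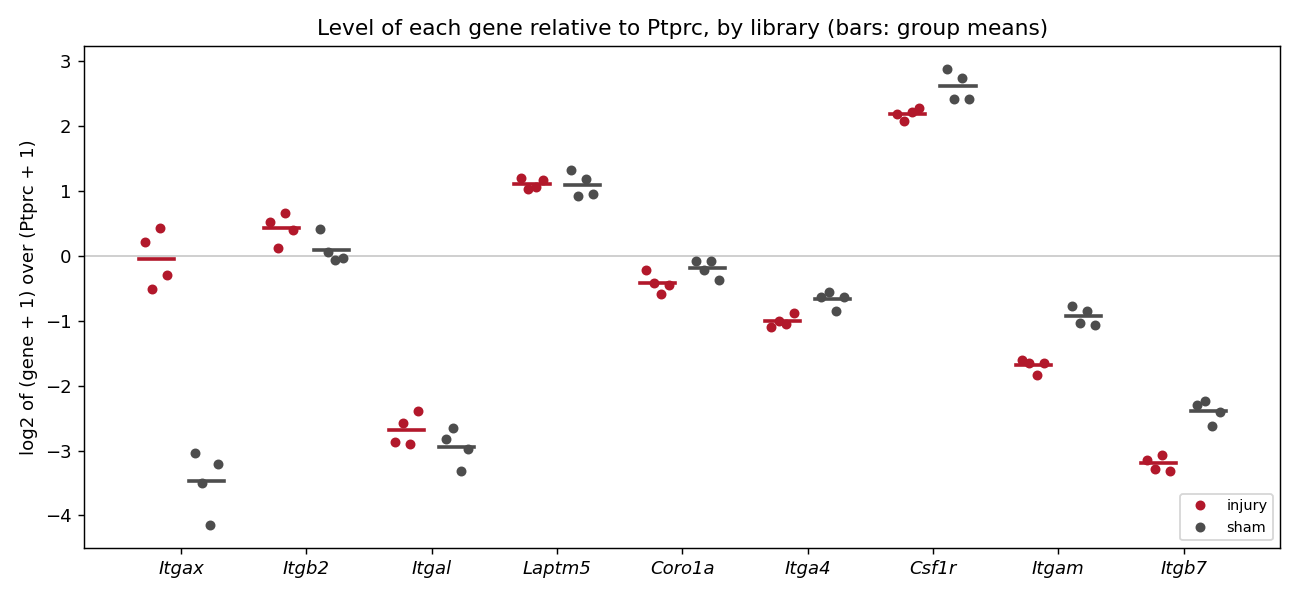
Log2 ratio of each other gene to Ptprc (1 added to both) in each library, injury libraries to the left of sham libraries. Points are libraries and bars are means of 4. The Itgax ratio averages -0.04 in injury libraries and -3.47 in sham libraries, and the Laptm5 ratios of the groups overlap.

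Levels of different genes were compared per kilobase of merged exon. After injury the order was Csf1r (507 normalised counts per kilobase), Laptm5 (366), Itgb2 (286), Coro1a (172), Itgax (136), Itgam (39.4), Ptprc (34.8), Itgb7 (24.9), Itga4 (22.7) and Itgal (15.03). In sham libraries Csf1r (384), Laptm5 (203), Itgb2 (125) and Coro1a (113) were again at the top, and Itgax (6.61) was last, after Itgal (7.0). Neighbours whose libraries overlapped in injury were Laptm5 and Itgb2, Coro1a and Itgax, Itgam and Ptprc, and Itgb7 and Itga4. In sham libraries they were Itgb2 and Coro1a, Itgb7 and Ptprc, Ptprc and Itga4, and Itgal and Itgax. The order depends on the length used. Over longest transcripts Ptprc stood above Itgam in both groups, with 111 per kilobase after injury and 62.2 after sham operation. Itga4 then stood above Itgb7 after injury and Coro1a above Itgb2 after sham operation, each with overlapping libraries. With its whole count divided by only its unshared exon bases, Itgam had 126 per kilobase after injury and 119 after sham operation. This choice was made after seeing the data and assumes that no counted read came from the shared bases.

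The makeup of the beta-2 alpha chains followed from these levels and is given as a description. Of the summed per-kilobase level of Itgal, Itgam and Itgax, Itgax made up 69.9 ± 7.73% after injury and 13.2 ± 3.58% after sham operation (SD, n = 4 each). Itgam made up 21.7 ± 5.01% after injury and 73.0 ± 5.22% after sham operation. Itgal made up 8.44 ± 2.86% after injury and 13.8 ± 2.57% after sham operation. With the same Itgam counts divided by only its 1574 unshared exon bases, Itgax made up 47.9 ± 8.91% after injury and 5.12 ± 1.53% after sham operation. This choice was made after seeing the data, and no separate count of those bases was available. Itgam then made up 46.5 ± 7.49% after injury and 89.5 ± 2.37% after sham operation. The share of Itgax was higher after injury with either length, but with the unshared bases the shares of Itgax and Itgam overlapped in injury libraries. The summed alpha level stood at 0.661 ± 0.041 of the Itgb2 level after injury and 0.409 ± 0.029 after sham operation. With the unshared bases of Itgam it stood at 0.973 ± 0.057 after injury and 1.06 ± 0.108 after sham operation, so its direction depends on the length of Itgam.

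**Figure D4:**
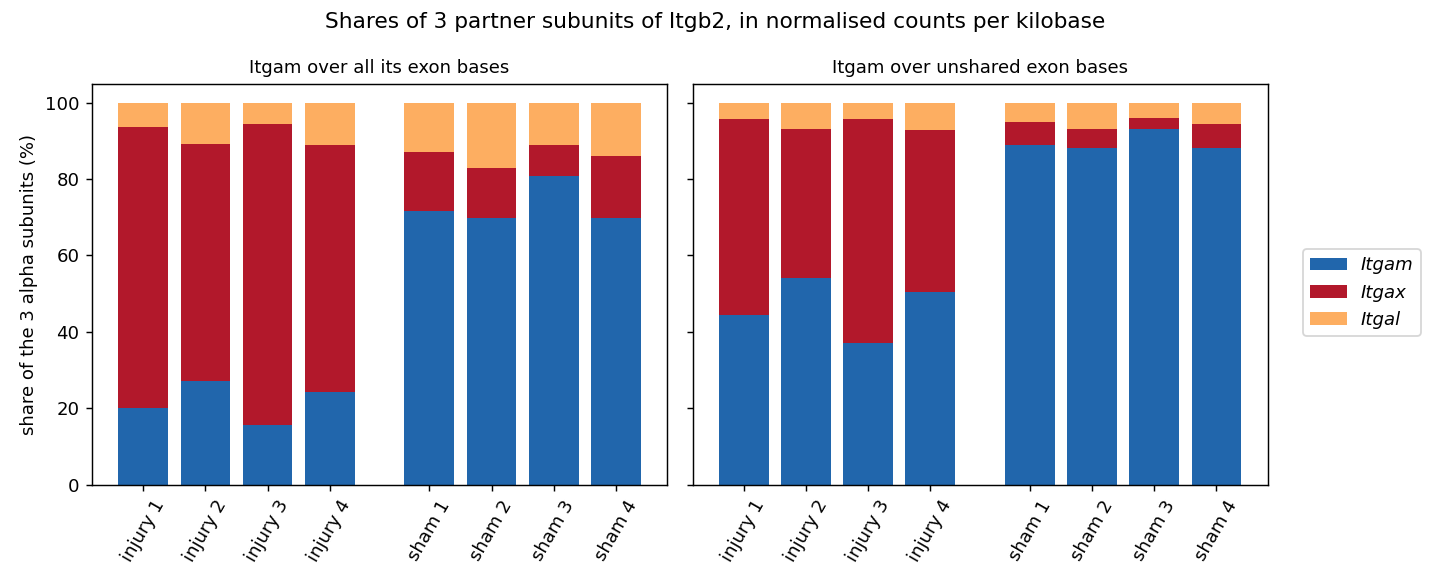
Stacked bars give the percent of Itgam, Itgax and Itgal in the summed per-kilobase level of the 3 alpha chains in each library, injury libraries to the left of sham libraries. The same Itgam counts are divided by all its exon bases in the left panel and by its unshared exon bases in the right panel. Itgax averages 69.9% in injury libraries and 13.2% in sham libraries in the left panel, and 47.9% in injury libraries and 5.12% in sham libraries in the right panel.

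Other integrin chains and the ligands of leukocyte integrins were counted in the same fit. Of 11 other measured subunits, 7 rose and 1 fell. Those that rose include Itgb1, the other partner of Itga4 (1.67-fold), Itgav (1.85-fold) and Itgb3 (2.29-fold). Itga9, the 1 that fell, had a log2 fold change of -0.26, and its call held in 7 of 18 alternatives. It was lost on leaving out any library but sham replicate 2 or injury replicate 4. Leaving out 1 library gave 0 to 2 subunits that fell, with 2 without injury replicate 4, and equal library totals gave 3. Of 12 ligands 4 rose and 4 fell, close to the 28.5% higher and 31.3% lower over all genes, and 2 fell with the muscle covariate. Vcam1, the ligand of Itga4, averaged 674.75 ± 103 normalised counts after injury and 195.75 ± 31.0 after sham operation (SD, n = 4 each), 3.44-fold higher. Fn1, a matrix ligand, was 5.05-fold higher. Icam1, the ligand of Itgal and Itgam, averaged 485 after injury and 485 after sham operation. Icam2 was 1.72-fold lower (limma adjusted p = 0.194 with the muscle covariate) and Esam 1.66-fold lower, and 8 of 12 endothelial markers (4 with the covariate) fell as well, with a summed level of 12678 to 16973 in injury libraries and 17721 to 21624 in sham libraries. The part of endothelial cells in these values was not tested.

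Of 10 genes of rolling and transmigration 3 rose and 4 fell, also close to the shares over all genes, and 1 fell with the covariate. The hyaluronan receptor Cd44 was 2.36-fold higher, and the endothelial selectin Sele was 1.78-fold lower, a call lost with the covariate (log2 fold change -0.54, limma adjusted p = 0.215). Of 17 genes on a list of integrin activation and its control, 10 rose and 4 fell. Rassf5, an effector of the small GTPase Rap1 (2.64-fold), and Rap1b itself (1.55-fold) were higher, and Rasgrp2, an exchange factor for Rap1, was 2.95-fold lower. With the muscle covariate 5 rose and 1 fell, and without the 3 muscle-rich libraries 6 did.

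Lists of actin, signalling and other genes with roles in leukocytes were counted next. These lists also hold genes that are not particular to leukocytes, and the part of leukocytes in the counts was not tested. Of 22 actin regulators 17 rose and 1 fell (7 rose with the muscle covariate, and 2 fell without sham replicate 4), led by Wipf1 (2.46-fold), a partner of WASP. Of 25 genes of signalling next to leukocyte receptors 22 rose and none fell (2 rose with the covariate), among them Pik3r5 (2.25-fold) and Tyrobp (1.94-fold; limma adjusted p = 0.0514 with the covariate), an adaptor of myeloid receptors. Of 10 genes linked to CD45 or to lysosomes 9 rose, beside 28.5% of all genes tested that were higher. Laptm5 is counted again among them, as are Coro1a in the actin list and Csf1r in the list that follows. The CD45-binding lectin Cd22 had 51, 41, 70 and 37 normalised counts in injury libraries and 0, 3, 3 and 1 in sham libraries. Its fold of 20.7 was 47.7 with a pseudocount of 0.1, and 479 of its exon bases overlap Gm29439. The next list joined the CSF1 receptor axis to other myeloid growth factor receptors and to transcription factors. Of its 19 measured genes 10 rose and 3 fell (3 rose with the covariate, and 1 fell without injury replicate 2). The transcription factor Runx1 was 2.41-fold higher, the ligand Csf1 was 1.38-fold lower (limma adjusted p = 0.0632 with the covariate and 0.0549 without injury replicate 2), and the ligand Il34 averaged 366.25 after injury and 326 after sham operation without passing the test.

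Markers of cell types were read beside these genes. Of 22 monocyte and macrophage markers 18 rose and 1 fell (8 rose with the muscle covariate). Mpeg1, a pore-forming protein of macrophages, was 5.92-fold higher, Ctss 3.14-fold and Lyz2 2.92-fold, while the haemoglobin scavenger receptor Cd163 was 3.28-fold lower. The summed level of the 22 was 34661 to 41953 normalised counts in injury libraries and 13683 to 19451 in sham libraries. The part of macrophage number in the change of the leukocyte genes was not tested. None of the 10 measured dendritic cell markers rose (1 with a replicate block) and 4 fell, beside 31.3% of all genes that were lower, and 2 fell with the covariate. Among those that fell were Zbtb46 (1.49-fold lower; limma adjusted p = 0.0936 with the covariate) and Cd209a (1.79-fold lower). Their summed level was 613 to 731 normalised counts in injury libraries and 829 to 1083 in sham libraries, and Xcr1 and Ccl17 had no value. Only 2 of 17 neutrophil markers had values: Mmp9 rose 4.69-fold and Il1r2 did not pass, and S100a8, S100a9 and Ly6g had no value. Of 6 measured T cell markers 3 rose and 1 fell, and the CD3 chains had no value. Of 2 measured B cell markers Ighm did not pass (log2 fold change -0.16, limma adjusted p = 0.47). The other, Ebf1, rose, a call lost with equal library totals (limma adjusted p = 0.118) and with the covariate (0.421). The 1 measured NK marker, Il2rb, rose, a call lost with the covariate (0.235). Of 7 measured mast cell markers 1 fell, and none fell with the covariate. No eosinophil marker had a value. Of 3 measured platelet markers 2 rose and none fell, or 1 fell without sham replicate 4 or injury replicate 1. The risers, Itgb3 and Itga2b, are also integrin subunits. All 4 measured erythroid markers and all 9 adipocyte markers fell. Of 8 Schwann cell markers 5 fell, or 2 without sham replicate 1, 2 or 4 or injury replicate 1 or 2. The full range on leaving out 1 library was 2 to 7, and none fell with the covariate. Of 10 tendon markers 7 rose, or 4 with the covariate.

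**Figure D5:**
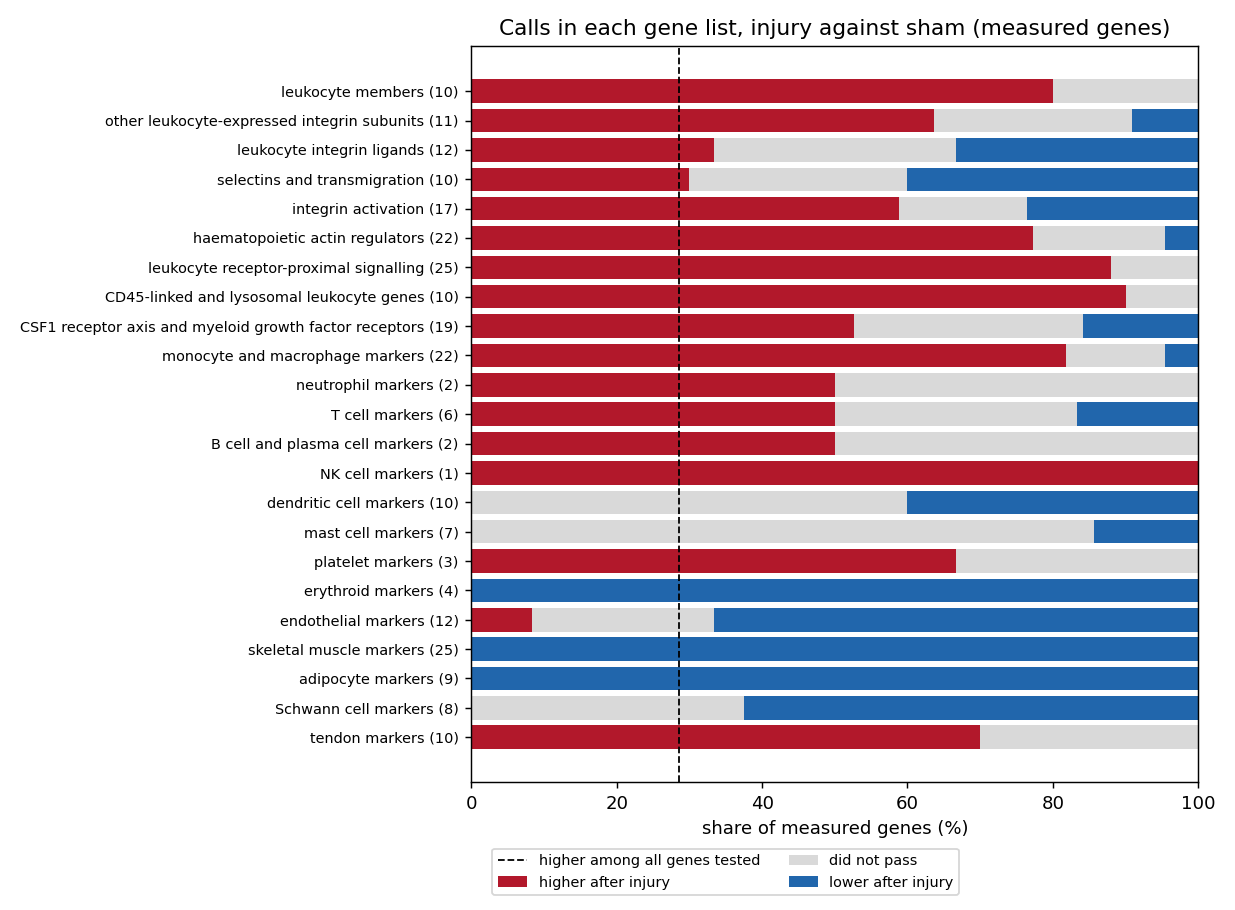
Percent of the measured genes of each list (their number in brackets) that were higher, did not pass or were lower after injury relative to sham; the dashed line is the 28.5% of all genes that were higher. The leukocyte genes had 8 higher and 0 lower of 10, macrophage markers 18 higher and 1 lower of 22, and skeletal muscle markers 0 higher and 25 lower of 25.

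Across the 8 libraries and 13077 genes with a mean of at least 50, the profiles most like that of Ptprc were those of Tctn1 (Pearson r = 0.993), Mpeg1 (0.992), Plekho2 (0.991), Gas2l1 (0.991) and Gm12892 (0.990). Of the 8295 exon bases of Tctn1, 1574 overlap those of Hvcn1 on the other strand, so its level is uncertain. Among the 10 genes, Laptm5 (0.961), Itgb2 (0.950), Itga4 (0.949) and Itgax (0.944) followed Ptprc most closely, and Itgam (0.476) and Itgb7 (0.277) least. These values describe 8 libraries that share the contrast of injury with sham operation.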

How the data were processed

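Bulk RNA sequencing gave 4 injury and 4 sham libraries, which were grouped by title. The deposited values are a score: normalised read counts, per the file headers, that the authors rounded to whole numbers. The submitters' processing notes name edgeR 3.12, StringTie 1.3.5, STAR 2.7.6a, Trimmomatic 0.39 and the builds mm9 and mm10. How the counts were normalised, whether strand was used and what each build served for is not given in the sources. Values were present for 15747 of 55450 genes, and sequencing depth is not known from normalised values.

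Since the values are not raw counts, limma 3.58.1 (R 4.3.3, variance trend) was run on log2(value + 1) for genes that reached 1 in 4 or more libraries, a filter that took out none. Two-sided p-values were Benjamini-Hochberg adjusted over all genes, at 0.05. Fold changes on this scale are understated for low genes. Pairs of genes were compared by exact permutation tests (scipy 1.17.1), adjusted over the 13 pairs. Exon lengths and overlaps came from GENCODE M21 (99.93% of identifiers matched), promoters from RefSeq. The 10 genes and 23 further lists were chosen with earlier results of these data known. From each list the text could name up to 3 called genes with the smallest adjusted p in the leading direction, the first in the other and the most abundant; others named were chosen after their values were seen. A gene that this rule chose is left unreported. Equal values were found for 1.11 to 2.25% of genes in replicate pairs, so no library was a duplicate. Alternatives covered scaling, pseudocount, filter, prior variance, replicate block, a muscle covariate and left-out libraries. The analysis was tested on simulated data. Figures were drawn with matplotlib 3.10.9.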

Additional observations from a re-analysis of the deposited data

Results flagged for a closer look

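Within groups of 4 libraries, 6 of 208 groups held a library whose gap to its nearest neighbour passed Dixon's 95% critical value, as about 1 in 20 groups do by chance. Arpc1b, a subunit of the actin-nucleating Arp2/3 complex, had 4288 normalised counts in injury replicate 1 and 3644 to 3751 in the other injury libraries, a gap of 0.834 of the range. Arpc1b had 2045 in sham replicate 4 and 2677 to 2788 in the other sham libraries (0.851). Inpp5d, a lipid phosphatase of blood cells, had 255 in sham replicate 4 and 318 to 322 in the other sham libraries (0.940). Cd163 had 209 in injury replicate 4 and 124 to 136 in the other injury libraries (0.859). Il2rb, a chain of the IL-2 receptor, had 43 in injury replicate 2 and 26 to 27 in the other injury libraries (0.941). Egfl7, an endothelial secreted protein, had 914 in injury replicate 1 and 707 to 734 in the other injury libraries (0.870).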

How the results depend on the processing

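Of the 10 leukocyte genes, 8 were called as reported, 7 with equal library totals or without the 3 muscle-rich libraries, and 6 with the muscle covariate. Leaving out each library in turn gave 7 to 8 of the 10 and 8641 to 9015 of all genes, against 9402. With the muscle covariate, 4081 of all genes and 85 list genes were called, against 193 list genes as reported, and among the named genes 3 log2 fold changes turned positive: Cyfip2 (0.33), Sox10 (0.10) and Mag (0.0899). The muscle share did not overlap between the groups, so that muscle and injury cannot be told apart in that fit. Whether replicate numbers pair the samples was not settled. Same-numbered libraries had correlations of deviations of 0.249, 0.284, -0.010 and 0.493, and differently numbered libraries were not compared. With a replicate block in the model, 9742 genes, 8 of the 10 leukocyte genes and 201 list genes were called. The 10 genes, those chosen by the naming rule and those most like Ptprc held 83 called genes. Of these 83, 20 lost their call with the muscle covariate and 3 without the 3 muscle-rich libraries. When some library was left out, 4 of the 83 lost theirs: Csf1r, Itga9, Mag and, without injury replicate 3, Tln1. Csf1, named outside that set, lost its call without injury replicate 2. Low values such as those of Cd22 in sham libraries limit the precision of its fold.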

Other observations

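Genes used as T cell markers moved in both directions while the CD3 chains had no value. Il7r, the receptor of IL-7, averaged 168.75 ± 33.3 normalised counts after injury and 33.25 ± 9.43 after sham operation (SD, n = 4 each), 5.02-fold higher. Bcl11b, a transcription factor of T cells, averaged 52.75 ± 3.77 after injury and 5.75 ± 1.50 after sham operation. Cd4 was 3.38-fold higher, and the costimulatory receptor Cd28 was 3.53-fold lower after injury. With the muscle covariate the log2 fold change of Cd28 was -0.95 and its limma adjusted p 0.0685, while that of Cd4 was 2.45 against 1.76 as reported. Among endothelial markers, of which 8 of 12 fell, the transcription factor Erg was 2.89-fold higher. The haemoglobin chain Hbb-bt averaged 91.5 ± 24.9 after injury and 447 ± 137 after sham operation.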
